A study of Mus musculus with 82 samples.

Results

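A set of 9 genes that mark the cells of small blood vessels were followed through the mouse suprachiasmatic nucleus (SCN), the small hypothalamic cell group known as the master circadian clock. The genes were chosen by symbol: 6 endothelial markers (Cldn5, Flt1, Pecam1, Ly6c1, Itm2a and Slco1a4) and 3 mural cell markers (Vtn, Rgs5 and Pdgfrb), that is 9 of 27515 genes in the count table. All 9 passed the filter on low counts, as did 11469 genes in all. The study measured 82 libraries, each from 1 hexagon of tissue with a largest radius of 40 µm, cut by laser capture microdissection from cresyl violet-stained sections of the SCN of C57BL/6 mice aged 8 weeks. Hexagons were placed by a grid and not by a marker, and Smart-seq2, which copies whole transcripts into cDNA from tiny amounts of RNA, gave the libraries. No treatment or genotype was compared: the labels place every hexagon on 3 axes (medial-lateral, dorsal-ventral, anterior-posterior), and the groups are 9 sections at anterior-posterior coordinates 47 to 431, with 4, 6, 12, 14, 12, 14, 13, 6 and 1 hexagons. The labels give no unit or orientation for the coordinates and name no animal, so hexagons may share an animal and all p-values over hexagons are too small.

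Endothelial cells line the vessel, and in the brain they form the blood-brain barrier through tight junctions and selective transporters. Mural cells sit on the outside of the endothelium: pericytes on capillaries and smooth muscle cells on arteries and arterioles, both sharing a basement membrane with the endothelium. Endothelial cells recruit pericytes with PDGF-B, which signals through the receptor encoded by Pdgfrb. A hexagon cut from tissue is crossed by vessels or not, and in such bulk pieces fewer cells of a type and less RNA per cell cannot be told apart.

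The promoters of Ly6c1, Cldn5, Flt1 and Rgs5 are shown because the levels of these 4 genes gave the highest pairwise correlations reported further on. Each runs from 250 bases before to 50 bases after the RefSeq start (GRCm38.p6), and capitals mark matches on either strand to the searched letters CCGGAA or AGGAAG (ETS cores), ACAATG (SOX), GTGGGAA (RBPJ) or GTAAACA (FOX). Ly6c1 lies at chr15:75048788-75049087, minus strand; Cldn5 at chr16:18776597-18776896, plus strand; Flt1 at chr5:147725962-147726261, minus strand; Rgs5 at chr1:169655251-169655550, plus strand.
Ly6c1 promoter: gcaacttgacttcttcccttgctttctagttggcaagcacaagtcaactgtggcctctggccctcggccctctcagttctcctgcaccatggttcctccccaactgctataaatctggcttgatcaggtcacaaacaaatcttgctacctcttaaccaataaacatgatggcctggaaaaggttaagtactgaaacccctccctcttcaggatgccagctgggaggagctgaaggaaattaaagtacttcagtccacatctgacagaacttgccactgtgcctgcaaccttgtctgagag
Cldn5 promoter: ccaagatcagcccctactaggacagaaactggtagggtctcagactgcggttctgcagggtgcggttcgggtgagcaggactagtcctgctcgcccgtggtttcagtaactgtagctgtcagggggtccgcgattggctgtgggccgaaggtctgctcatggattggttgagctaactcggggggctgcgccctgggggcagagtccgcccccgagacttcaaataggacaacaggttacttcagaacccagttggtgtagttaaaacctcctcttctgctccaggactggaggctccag
Flt1 promoter: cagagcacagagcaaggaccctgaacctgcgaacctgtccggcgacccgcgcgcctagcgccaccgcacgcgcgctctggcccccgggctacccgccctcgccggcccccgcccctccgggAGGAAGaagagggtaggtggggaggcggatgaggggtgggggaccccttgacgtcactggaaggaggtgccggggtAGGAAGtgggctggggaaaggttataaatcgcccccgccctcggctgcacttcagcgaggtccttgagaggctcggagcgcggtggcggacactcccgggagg
Rgs5 promoter: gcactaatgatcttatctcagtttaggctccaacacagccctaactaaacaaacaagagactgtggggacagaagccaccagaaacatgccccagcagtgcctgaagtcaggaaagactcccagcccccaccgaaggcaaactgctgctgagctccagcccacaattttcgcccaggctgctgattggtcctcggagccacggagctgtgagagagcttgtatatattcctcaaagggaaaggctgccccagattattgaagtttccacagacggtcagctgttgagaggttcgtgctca
Flt1 held 2 matches to AGGAAG, and the printed windows of Ly6c1, Cldn5 and Rgs5 held none of the searched letters. RefSeq gives Ly6c1 a second start, whose overlapping window (chr15:75048614-75048913, minus strand, not printed) held 3 matches to AGGAAG. RefSeq entries were matched for 7 of the 9 genes. Among 27025 promoters of the same length, 35.1% held AGGAAG, 15.2% CCGGAA, 12.8% ACAATG, 6.39% GTGGGAA and 3.55% GTAAACA. The first entries of 3 of the 7 genes (Flt1, Slco1a4 and Itm2a) held an ETS core, against 45.2% of all promoters holding either core. A match of letters is not a binding site.

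Library totals ran from 11905 to 2843366 counts (median 542267.5) and genes detected from 2549 to 13419. In 5 libraries, called low-depth here, the total was below the median divided by 3. No library pair was identical. The first letter of a second label, taken here as a library set, follows the sections closely, so set and section cannot be fully told apart. The labelled region was checked with Vip, the neuropeptide gene of a ventral SCN neuron class, which had counts in 62 of 82 hexagons and rose by 1.54 on the log2 scale per 100 dorsal-ventral units (edgeR quasi-likelihood test, hexagons may share an animal).

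Counts of vessel genes were found throughout the nucleus, but unevenly between hexagons. Every one of the 82 hexagons had at least 1 count of an endothelial marker, 37 had all 6, and 21 had all 9 genes. Section 8 replicate 5 had only 1 endothelial count and section 4 replicate 4 only 2, all of Itm2a and below a floor of 3 counts. Only 3 hexagons had no mural count. Per length, in the deposited RPKM, mean levels were ordered Itm2a 44.6 ± 41.0, Vtn 28.0 ± 72.1, Ly6c1 22.9 ± 27.1, Rgs5 19.8 ± 26.2, Cldn5 9.66 ± 12.4, Slco1a4 6.05 ± 8.08, Pdgfrb 2.83 ± 4.73, Flt1 2.23 ± 2.65 and Pecam1 1.48 ± 2.32 (SD, n = 82 hexagons). Each gene differed from its neighbour in this order by less than the SD of either.

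Among the endothelial genes, Itm2a, which encodes an integral membrane protein, was the most widely detected. It had a lowest, median and highest level of 0, 63.3 and 370 CPM (CPM, reads scaled to a common library size with TMM factors) and was at 0 in 8 hexagons. Ly6c1, a surface antigen of the Ly6 family abundant on brain endothelium, had 0, 24.7 and 271 CPM and was at 0 in 12 hexagons. Its near-identical neighbour Ly6c2 had 25 counts in all, against 2731 for Ly6c1, and reads that the counting could split between them cannot be resolved here. Slco1a4, an organic anion transporter of the barrier, had 0, 26.0 and 348 CPM and was at 0 in 18 hexagons. Its relatives Slco1a5, Slco1a1 and Slco1a6 had 8, 1 and 1 counts, against 2049 for Slco1a4. Flt1, a receptor for VEGF-A, had 0, 22.4 and 222 CPM and was at 0 in 14 hexagons. Cldn5, the claudin that seals barrier tight junctions, had 0, 8.55 and 114 CPM and was at 0 in 18 hexagons. Pecam1, an adhesion molecule of endothelial junctions, was the sparsest, with 0, 2.56 and 85.0 CPM and 34 hexagons at 0.

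Among the mural genes, Rgs5, a regulator of G protein signalling enriched in pericytes, was widespread, with 0, 62.8 and 682 CPM and 9 hexagons at 0. Pdgfrb, the receptor for PDGF-B, had 0, 5.83 and 177 CPM and 25 hexagons at 0. Vtn, which encodes the matrix glycoprotein vitronectin and is strongly expressed by brain pericytes, was the patchiest, with 0, 3.09 and 1180 CPM and 35 hexagons at 0. In 34 of those 35 hexagons the pooled Vtn level would give 3 or more expected counts. Rgs5 was counted without Vtn in 28 hexagons and Vtn without Rgs5 in 2. The spread of Vtn over hexagons was 255% of its mean, against 21.0% from counting alone. The corresponding spreads of the other 8 genes ran from 92.6% (Itm2a) to 167% (Pdgfrb), against counting values from 16.6% to 52.2%. These counting values and the expected counts cover the sampling of reads only. Losses and uneven copying of RNA before sequencing were not measured, so the excess spread and zeros cannot be assigned to the tissue. The fitted biological coefficient of variation of Vtn was 2.36, above 99.6% of the genes tested, and those of the other 8 lay between the 77.6th percentile (Flt1) and the 93.3rd (Pecam1).

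**Figure D1:**
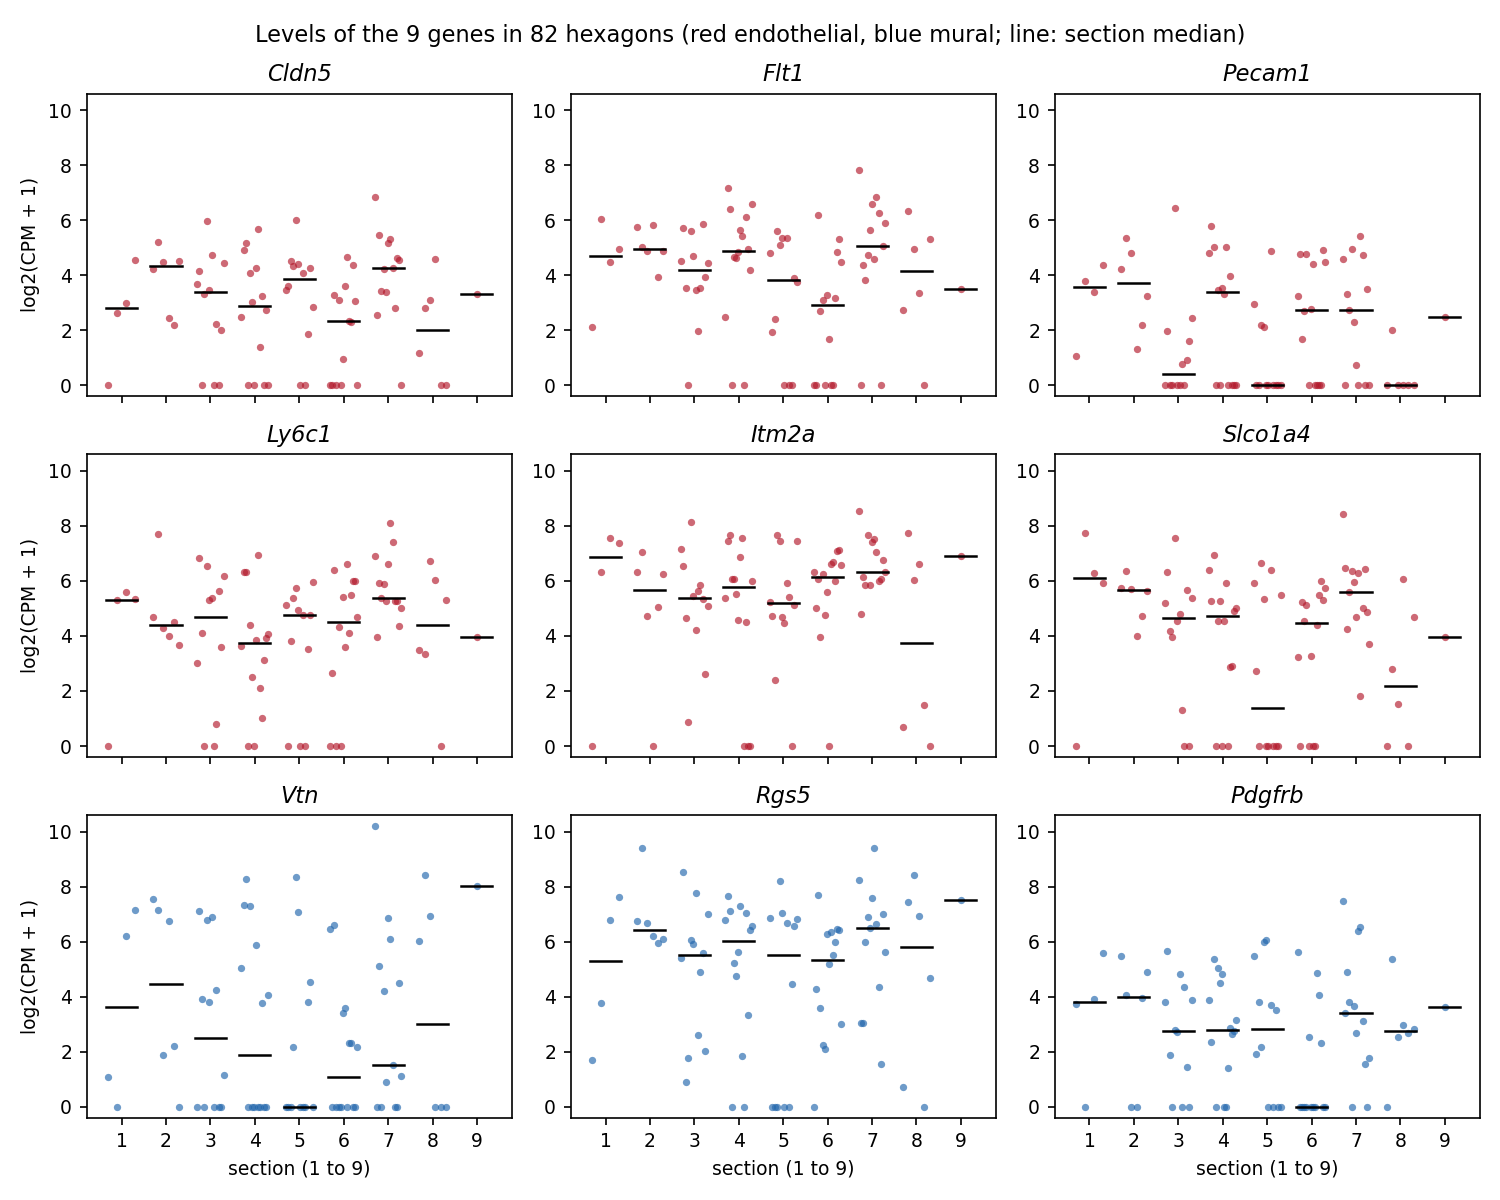
Levels of the 9 genes, as log2(CPM + 1), by section; each point is 1 hexagon and the line is the section median. Rgs5 reaches 0 in 4 of the 9 sections and each other gene in 6 to 8, and the highest single value is Vtn in section 7, at 1180 CPM.

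The highest levels met in a few hexagons. Section 7 replicate 1, at medial-lateral 1171 and dorsal-ventral 852, was the highest hexagon for Cldn5 (114 CPM), Flt1 (222), Itm2a (370), Slco1a4 (348), Vtn (1180) and Pdgfrb (177). It is also 1 of the 5 low-depth libraries, with 176618 counts, so these values rest on 20 to 207 counts each. The same hexagon had the highest sum of 5 erythrocyte genes (17001 CPM, against a median of 29.3 CPM over hexagons) and 2109 CPM of 10 meningeal and perivascular fibroblast markers, against a median of 104 CPM. Their part in these levels was not tested. Section 7 replicate 8, at medial-lateral 1290 and dorsal-ventral 632, was the highest for Ly6c1 (271 CPM) and Rgs5 (682 CPM), and held 20.0% of all Ly6c1 counts and 21.7% of all Rgs5 counts. It was sequenced deeply, with 2154543 counts or 3.53% of the counts of all libraries, and on the CPM scale section 2 replicate 2 had nearly as much Rgs5 (677 CPM). Pecam1 was at 0 in section 7 replicate 8 and was highest in section 3 replicate 5 (85.0 CPM).

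No gene of the 9 passed a test of its slope along a single axis. Along the dorsal-ventral axis, 0 of the 9 genes passed an adjusted p of 0.05 in edgeR's quasi-likelihood test across all genes, where 0.793% of 11469 genes passed; 2 of the 9 (Vtn and Pdgfrb) had an unadjusted p under 0.05, as did 8.46% of all genes, and DESeq2 also called none. The 6 endothelial slopes lay between -0.20 (SE 0.18, Pecam1) and 0.00 (SE 0.25, Cldn5) on the log2 scale per 100 coordinate units, with a median of -0.03, against 0.00 over all genes tested. The 3 mural slopes were all positive: 0.66 for Vtn (SE 0.23, adjusted p = 0.266 by edgeR), 0.39 for Pdgfrb (SE 0.18, adjusted p = 0.477 by edgeR) and 0.02 for Rgs5 (SE 0.17, adjusted p = 0.999 by edgeR). These p-values over hexagons are too small where hexagons share an animal. Slopes were also fitted within single sections by least squares on log2(CPM + 1), with the dorsal-ventral coordinate alone. The Vtn slope was positive in 5 of 8 sections, that of Pdgfrb in 4 of 8 and that of Rgs5 in 2 of 8.

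Along the medial-lateral axis, again 0 of the 9 passed, where 1.38% of 11469 genes passed; 1 (Vtn) had an unadjusted p under 0.05, as did 11.7% of all genes, and DESeq2 called none. Vtn had the steepest slope, -1.04 (SE 0.32, adjusted p = 0.0838 by edgeR, hexagons possibly sharing an animal). At low medial-lateral coordinates (1100 to 1228) Vtn ran from 0 to 1180 CPM with a median of 31.7 (n = 27). At middle coordinates (1236 to 1342) it ran from 0 to 155 CPM with a median of 0.98 (n = 28), and at high coordinates (1348 to 1517) from 0 to 186 CPM with a median of 1.25 (n = 27). The ranges overlapped, and 10, 13 and 12 hexagons were at 0 at low, middle and high coordinates. The other 8 slopes lay between -0.39 (SE 0.25, Pecam1) and 0.19 (SE 0.21, Ly6c1).

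**Figure D2:**
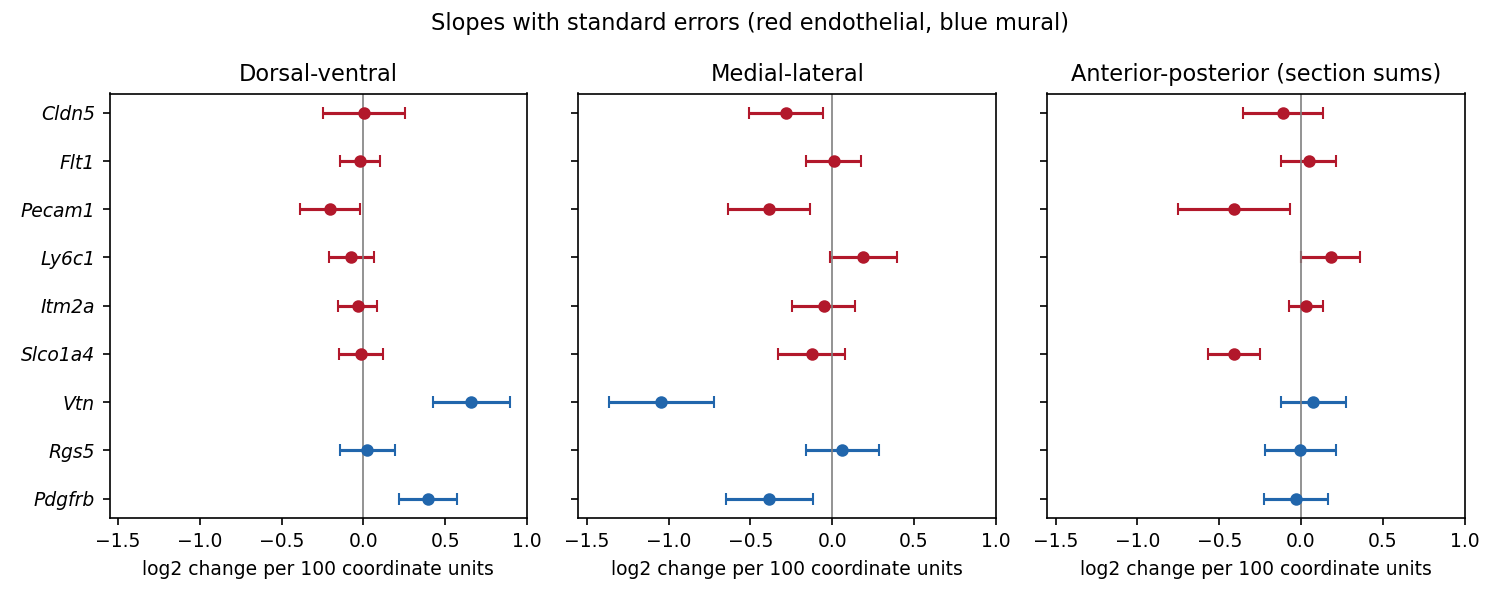
Slopes of the 9 genes along the 3 axes, as log2 change per 100 coordinate units; bars are standard errors. The Vtn points lie at 0.66 and -1.04 on the dorsal-ventral and medial-lateral axes, and none of the 27 slopes passed an adjusted p of 0.05.

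A test of 5 position terms together (both coordinates, their squares and their product), which can also find a peak inside a section, called 1 of the 9 genes, where 2.03% of 11469 genes passed; at an unadjusted p under 0.05 it was also 1 of the 9, against 10.7% of all genes. That gene was Vtn (F = 4.78, adjusted p = 0.0423 by edgeR, hexagons possibly sharing an animal). Its highest mean was at high dorsal-ventral and low medial-lateral coordinates, 242 CPM with a median of 63.4 CPM (n = 7). That mean rested on section 7 replicate 1: without it, an alternative chosen after its values were seen, the mean there was 85.4 CPM (n = 6), and the highest was 109 CPM (n = 8) at middle dorsal-ventral and low medial-lateral coordinates. The call lay close to the threshold and was easily lost. The edgeR adjusted p was 0.312 without section 7 replicate 1 and 0.429 without the 5 low-depth libraries. With library set as a further factor it was 0.476, and DESeq2 gave 0.116. The call was also lost without any one of sections 3 to 8 (adjusted p from 0.0747 to 0.426 by edgeR), and on leaving out 34 of the 82 hexagons one at a time. Adjusted p of the other 8 genes lay between 0.606 (Slco1a4) and 0.997 (Cldn5).

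**Figure D3:**
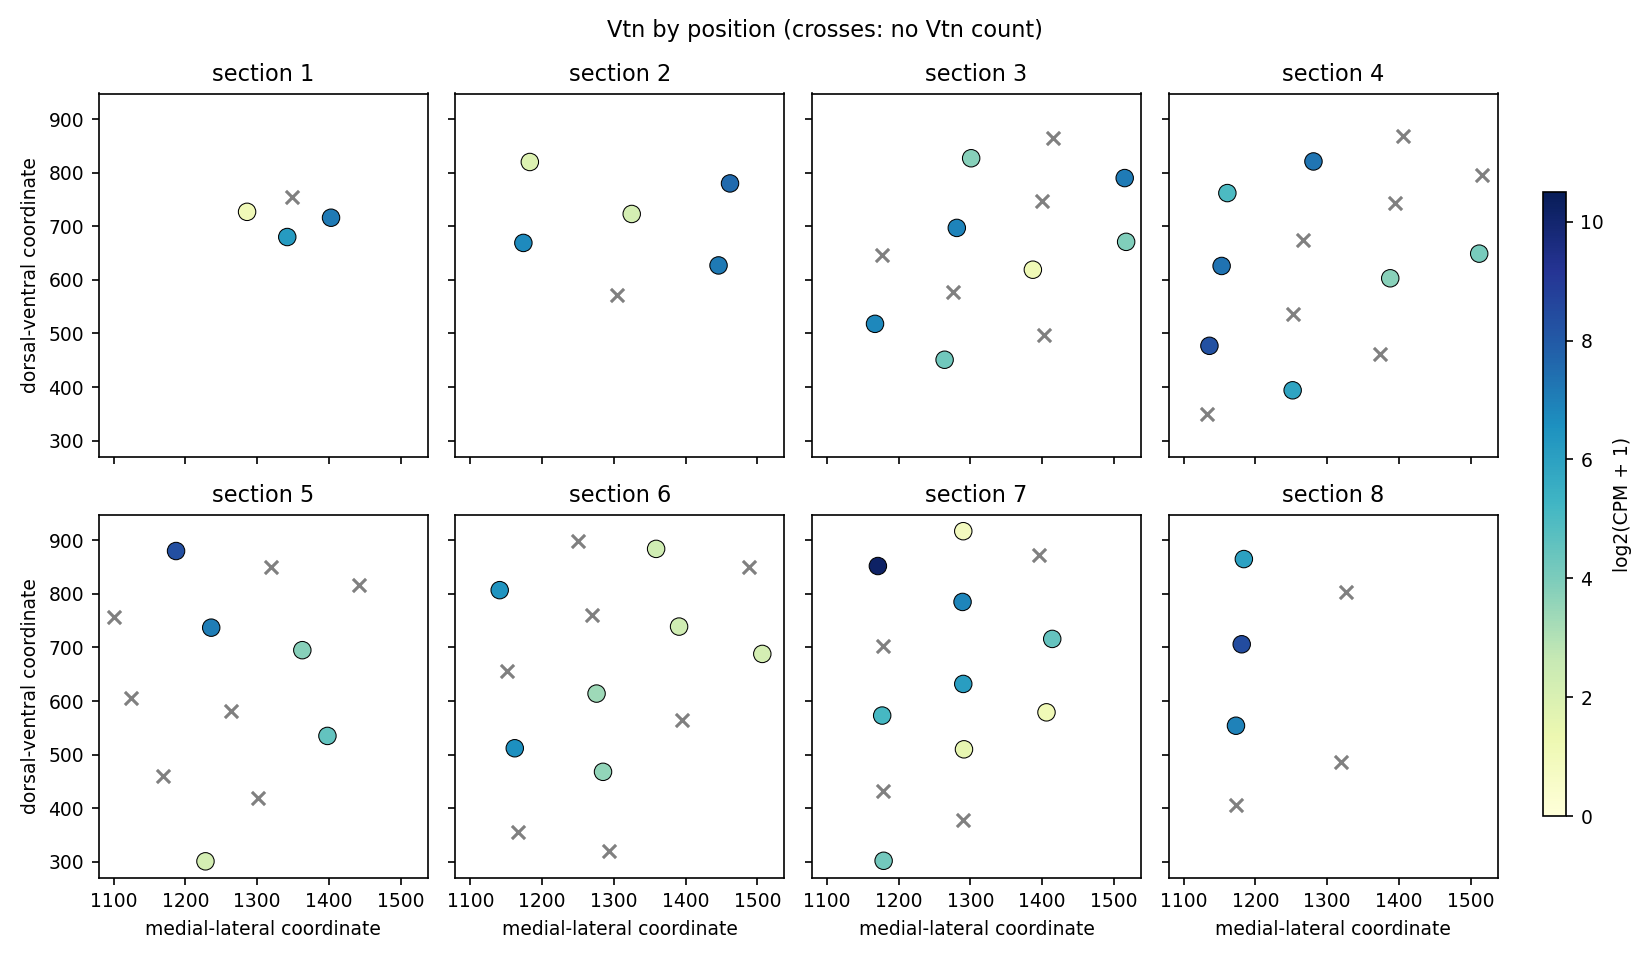
Vtn in sections 1 to 8 by medial-lateral and dorsal-ventral coordinate; colour is log2(CPM + 1) and crosses are hexagons with no Vtn count. High hexagons and hexagons at 0 neighbour each other, and the highest, 1180 CPM, lies at medial-lateral 1171 and dorsal-ventral 852 in section 7.

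Markers of fibroblasts and red cells were measured beside Vtn. The summed fibroblast list (10 genes, none at 0 in every hexagon) ran from 0 to 2199 CPM with a median of 104 CPM. All 10 hexagons with the highest Vtn had fibroblast marker counts, as did 80 of the 82 hexagons. A count of any listed gene was enough for this, and Dcn by itself was at 0 in 65 hexagons. The correlation of Vtn with the summed fibroblast list was 0.24, or 0.16 without 2 extreme hexagons. With its 5 tested genes it ran from 0.03 to 0.52 (median 0.34), highest for Dcn, the proteoglycan decorin. With the 5 erythrocyte genes it ran from 0.22 to 0.37 (median 0.32). The correlation with the summed fibroblast list was not particular to Vtn. It was higher for Ly6c1 (0.40), Flt1 (0.38), Pecam1 (0.28) and Slco1a4 (0.26). It was lower for Cldn5 (0.22), Rgs5 (0.17), Itm2a (0.16) and Pdgfrb (0.07). Gene by gene, the median r with the tested fibroblast markers was 0.34 for Vtn, 0.25 for Rgs5, 0.18 for Ly6c1 and 0.08 for Pdgfrb. Such medians were not taken for the other members. Of the 5 tested fibroblast markers, 2 passed along the medial-lateral axis, where 1.38% of all genes passed, and 0 along the dorsal-ventral axis. These were Dcn and Slc6a13, a GABA transporter of leptomeningeal cells, which fell by 1.87 (SE 0.41, adjusted p = 0.00606 by edgeR) and by 2.01 (SE 0.32, adjusted p = 0.000135 by edgeR) per 100 units, again over hexagons that may share an animal. The Dcn call was lost without the low-depth libraries (adjusted p = 0.0555 by edgeR), with library set as a further factor (0.0858) and without section 3 replicate 5 or section 4 replicate 3. Of the 5 erythrocyte genes, 1 passed along the dorsal-ventral axis and 0 along the medial-lateral axis. Hbb-bt, a beta-globin gene of red cells, rose along the dorsal-ventral axis by 1.23 (SE 0.29, adjusted p = 0.0131 by edgeR), a call lost without section 7 replicate 1 (adjusted p = 0.111 by edgeR) or without section 6. The 5-term test, which 2.03% of all genes passed, called the fibroblast markers Slc6a13, Dcn and Col1a2 and the erythrocyte genes Hbb-bt and Hba-a1. Their adjusted p ran from 0.000561 to 0.0245 by edgeR, over hexagons that may share an animal. Without section 7 replicate 1 the calls of Col1a2 (adjusted p = 0.0823 by edgeR), Hbb-bt (0.107) and Hba-a1 (0.277) were lost. That of Dcn was lost without section 3 replicate 5 or section 4 replicate 3. The part of fibroblasts and red cells in the Vtn values was not tested.

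From section to section, 0 of the 9 genes passed the test of sections 1 to 8, where 4.06% of 11440 genes passed; 1 of the 9 (Pecam1) had an unadjusted p under 0.05, as did 15.1% of all genes, and DESeq2 called none. Pecam1 came nearest (F = 2.23, adjusted p = 0.289 by edgeR, hexagons possibly sharing an animal), and passed without section 3 replicate 5 (adjusted p = 0.0403 by edgeR). It was at 0 in 5 of 6 hexagons of section 8 and 8 of 12 of section 5, and in none of sections 1 and 2. The summed level of the 6 endothelial genes had section medians from 104 CPM (section 5) to 343 CPM (section 1), and the ranges of all 8 sections overlapped. The summed mural level had section medians from 60.4 CPM (section 3) to 141 CPM (section 2), also overlapping. Along the anterior-posterior axis, with 1 summed value for each of 8 sections, 0 of the 9 passed, where 0.226% of 13268 genes passed; 1 (Slco1a4) had an unadjusted p under 0.05, as did 15.6% of all genes, and DESeq2 called none. Slco1a4 had -0.41 per 100 units (SE 0.16, adjusted p = 0.234 by edgeR) and Pecam1 -0.41 (SE 0.34). On simulated counts this last test made more false calls than its threshold allows.

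The wider vessel lists were put through the same tests. Of 109 genes on 6 further vascular lists (barrier transporters and junctions, other endothelial, pericyte, smooth muscle and arterial markers, vascular ligands and basement membrane), 65 were tested within sections and 0 passed along the dorsal-ventral or the medial-lateral axis. The 5-term test called 1, Sparc, a matrix glycoprotein also made by astrocytes, and the test of sections called Sparc and Zic1, a transcription factor. The 5-term call of Sparc was lost without any one of sections 2, 3, 5 or 6 (adjusted p up to 0.379 by edgeR), and the Zic1 call without section 3, 7 or 8 (up to 0.199). The Sparc call between sections (adjusted p = 1.955e-05 by edgeR) was kept on leaving out any 1 section (up to 0.00906) or hexagon. Along the anterior-posterior axis 0 of 90 passed. Over all genes tested the shares were 0.793% (dorsal-ventral), 1.38% (medial-lateral), 2.03% (5 terms), 4.06% (sections) and 0.226% (anterior-posterior), so counts this low are near the background. By comparison, 7 of 12 astrocyte and endfoot markers passed the test of sections, where 4.06% of all genes passed, over hexagons that may share an animal. The 4 with the largest F were Aqp4, the water channel of endfeet (F = 7.36), Agt (5.91), Mlc1 (4.42) and Gja1 (4.24). Leaving out 1 section at a time ended no call of Aqp4 or Agt, but ended that of Mlc1 in 1 of 8 cases, of Gja1 in 3 of 8 and of each of the other 3 markers in 3 to 5 of 8. Without the low-depth libraries 2 of those 3 also lost their call. Whether the astrocyte and vascular lists differ was not tested.

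The 9 genes varied together from hexagon to hexagon. After removal of section means, log2(CPM + 1) correlated positively in 36 of 36 pairs over the 82 hexagons, with a median r of 0.39 (0.068 to 0.644). The median r of these genes with all genes tested was 0.058, with 5th and 95th percentiles of -0.156 and 0.254. The points share library sets, depth and possibly animals, so these r are descriptions. Endothelial pairs had a median r of 0.44, endothelial-mural pairs 0.30 and mural pairs 0.39. The highest were Ly6c1 with Cldn5 (0.64), Ly6c1 with Rgs5 (0.64), Flt1 with Rgs5 (0.62) and Ly6c1 with Flt1 (0.61), the genes whose promoters are printed above. The lowest was Pecam1 with Pdgfrb (0.068).

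**Figure D4:**
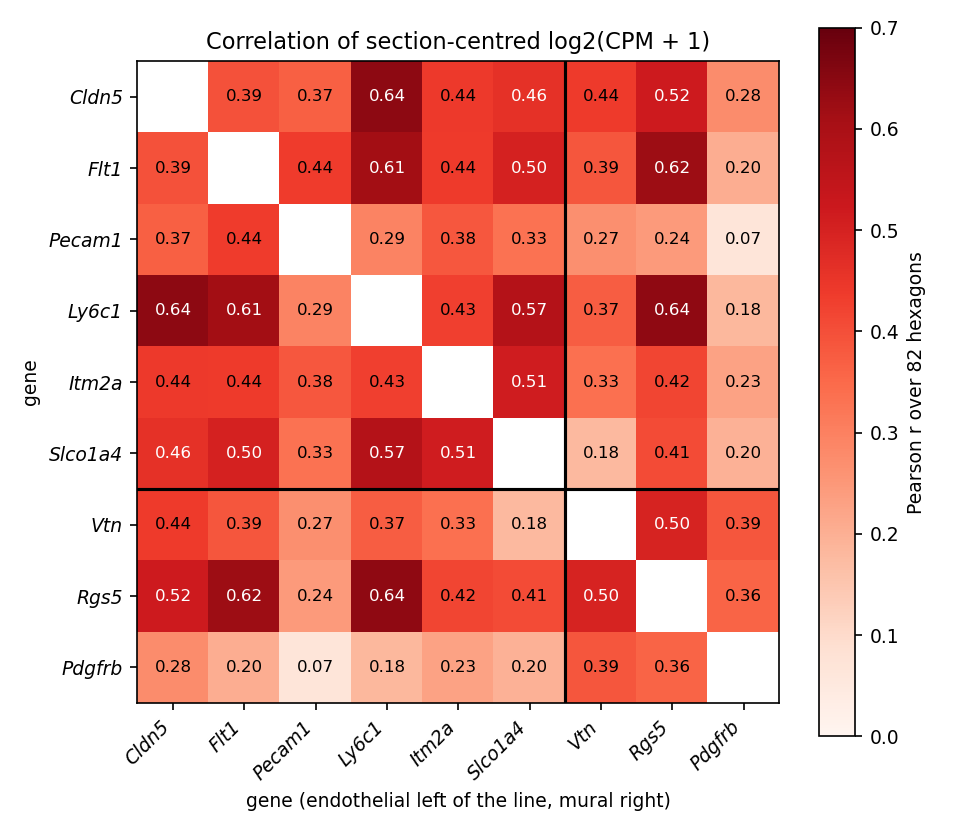
Pearson r of section-centred log2(CPM + 1) for the 36 pairs over 82 hexagons; black lines part the endothelial from the mural genes. The deepest colours are Ly6c1 with Cldn5 and with Rgs5, both 0.64, and Pdgfrb has the palest column.

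Summed endothelial and summed mural levels had r = 0.61 and Spearman's rho = 0.65 over the 82 hexagons. Without section 7 replicate 1, an alternative chosen after its values were seen, r was 0.60. The correlation of depth (log2 total counts) with the endothelial sum was -0.20 and with the mural sum 0.06. With the number of genes detected the values were -0.06 and 0.29.

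**Figure D5:**
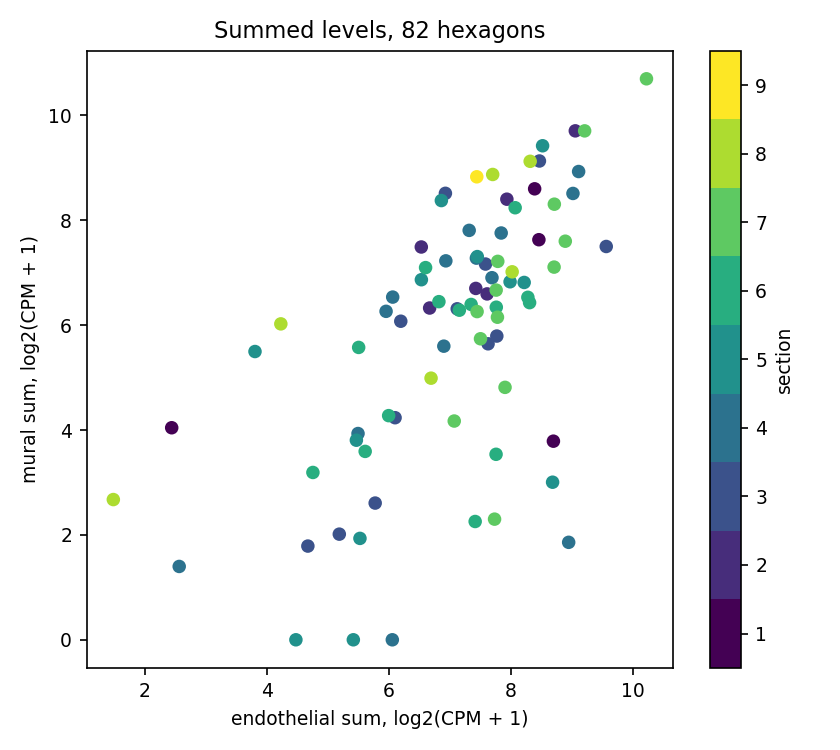
Summed level of the 6 endothelial genes against that of the 3 mural genes in 82 hexagons, both as log2(CPM + 1), coloured by section. The sums rise together with wide scatter, 3 hexagons lie at a mural sum of 0, and r was 0.61 after section means are removed.

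The genes most like the endothelial sum were Ptprb, a receptor phosphatase of endothelium (r = 0.64), Slco1c1, a thyroid hormone transporter of the barrier (0.61), Ly6a (0.56), Arhgap29 (0.56), Jcad, a junctional protein (0.54), Pltp (0.53), Adgrl4 (0.51), Tgfbr2 (0.50), Tm4sf1 (0.49) and Ets1 (0.49). For the mural sum they were Tm4sf1 (0.56), Bgn, the proteoglycan biglycan (0.54), Bsg (0.53), Wfdc1 (0.52), Cxcl12 (0.51), Smox (0.50), Ptn (0.50), Sptbn1 (0.49), Pltp (0.49) and Wdr41 (0.49). Over all genes tested, members left out, the median r was 0.00 with the endothelial sum and 0.12 with the mural sum. With the mural sum, 9136 of 11460 genes correlated positively. Single genes had partly other partners. Vtn was most like Slc6a20a (0.57), Bgn (0.57) and Dcn (0.52), Pdgfrb most like Micall1 (0.46), Id3 (0.46) and Avpr1a (0.45), and Pecam1 most like Slc22a8, an organic anion transporter (0.47), Elovl7 (0.47) and Inpp5e (0.45). The partners of Cldn5 were Ly6c1, Tgfbr2 (0.57) and Pltp (0.55), those of Slco1a4 were Ptprb (0.60), Ly6c1 (0.57) and Pltp (0.55), and those of Itm2a were Slco1a4 (0.51), Arhgap29 (0.45) and Tgfbr2 (0.45). Across whole lists, 19 of 19 tested other endothelial markers correlated positively with the endothelial sum (median 0.30), as did 16 of 16 barrier genes (median 0.18), 11 of 11 oligodendrocyte markers (median 0.30) and 12 of 12 astrocyte markers (median 0.16), against a median of 0.00 over all genes. Smooth muscle and arterial markers (4 of 14 tested) had a median of 0.01 with the endothelial sum, from -0.25 to 0.33. With the mural sum their median was 0.03, from -0.16 to 0.44. Myl9 was the highest with both sums.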

How the data were processed

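Counts per gene and RPKM values for 82 SCN hexagons were deposited by the authors. Per the submitters' processing notes, bcl2fastq 2, STAR and the build GRCm38 were used; how reads were counted is not given in the sources used here. RPKM values deposited by the authors equal their counts divided by gene length and library total. Symbols came from the RPKM table, joined by gene ID. A gene was kept if at least 10 libraries held at least 10 counts of it, and the counts were tested with edgeR 4.0.16 (R 4.3.3; TMM scaling, quasi-likelihood F test, Benjamini-Hochberg over all genes tested, threshold 0.05), with section as a factor and both within-section coordinates. The anterior-posterior fit used counts summed per section (10 or more counts in 4 or more sums). DESeq2 1.42.0 was the alternative tool. Correlations used log2(CPM + 1) minus the section mean and have no p. Scripts were tested on simulated data. Named genes are the 9 members, the 3 tested genes with the highest r to each, the 10 most like each sum, up to 4 called genes per list and Vip. The members and lists were chosen with earlier results of these data known. A gene at 0 in a hexagon is undetected at that depth: 3 counts correspond to 17.0 CPM in section 7 replicate 1. Replicates are hexagons, so p-values of the other tests measure the spread between hexagons. Those of the anterior-posterior test measure the spread between section sums.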

Additional observations from a re-analysis of the deposited data

Results flagged for a closer look

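Within sections of 4 to 6 hexagons, 7 of 27 gene and section combinations had a hexagon apart from the rest by Dixon's criterion; chance flags about 1 in 20 groups of independent, normally spread values. These CPM are skewed, hold many zeros and share hexagons between correlated genes, so the number of such values is not read against that rate. In section 2, replicate 2 had 210 CPM of Ly6c1 (next 24.6) and 677 CPM of Rgs5 (next 107). In section 8, replicate 2 had 344 CPM of Vtn (next 122), 40.7 CPM of Pdgfrb (next 6.88) and 3.02 CPM of Pecam1, which was at 0 in the other 5 hexagons. That Pecam1 value is 2 counts, below the floor of 3 counts (4.30 CPM in that library). In section 8, replicate 4 had 22.9 CPM of Cldn5 (next 7.65) and 66.5 CPM of Slco1a4 (next 24.6). The fibroblast list was highest of all hexagons in section 8 replicate 2, at 2199 CPM; its part was not tested.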

How the results depend on the processing

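Counts of called genes over the whole table changed by over 1.5 times with the filter, the tool and the libraries used, and by less with either other scaling. Without a filter on low counts they were 799 (dorsal-ventral), 912 (medial-lateral), 3538 (5 terms), 4634 (sections) and 106 (anterior-posterior), against 91, 158, 233, 464 and 30. With DESeq2 they were 162, 386, 403, 915 and 476 in the same order. With library set as a further factor the medial-lateral count was 14 and the 5-term count 140; that factor was not fitted to sections, which it follows. With hexagons in place of section sums the anterior-posterior count was 379. Leaving out 1 section or hexagon gave 44 to 137, 31 to 239, 81 to 285, 278 to 591 and 1 to 73; the cause was not tested. Single hexagons were not left out of the section sums. The endothelial-mural correlation stayed between 0.580 and 0.641 in every alternative run. Vtn passed along the medial-lateral axis without the filter (slope -1.04, adjusted p = 0.046 by edgeR) and without section 2 (adjusted p = 0.032 by edgeR). It also passed there without section 3 replicate 2. In other settings this Vtn slope was shallower and not called. It was -0.8252 without low-depth libraries (adjusted p = 0.323 by edgeR) and -0.8079 with library set (adjusted p = 0.537 by edgeR). Without section 4 it was -0.8144 (adjusted p = 0.327 by edgeR), and without section 7 replicate 1 it was -0.829. Pecam1 passed between sections without section 3 replicate 5. None of the slopes that changed sign was called: along the dorsal-ventral axis Cldn5 was -0.0020 with library size alone and -0.029 without low-depth libraries and Rgs5 -0.0071 without low-depth libraries; along the medial-lateral axis Rgs5 was -0.045 with library set; along the anterior-posterior axis over hexagons Vtn was -0.53, Rgs5 0.061 and Pdgfrb 0.029. With 1 section or hexagon left out, slopes that turned sign ran dorsal-ventral for Cldn5 -0.1105 to 0.0994, Flt1 -0.0994 to 0.0229, Ly6c1 -0.1461 to 0.0068, Itm2a -0.083 to 0.0278, Slco1a4 -0.1589 to 0.0807 and Rgs5 -0.1325 to 0.1184; medial-lateral for Flt1 -0.0534 to 0.135, Itm2a -0.1805 to 0.0872, Slco1a4 -0.2916 to 0.0148 and Rgs5 -0.0696 to 0.19; anterior-posterior for Cldn5 -0.405 to 0.0786, Flt1 -0.148 to 0.136, Ly6c1 -0.0598 to 0.406, Itm2a -0.116 to 0.14, Vtn -0.377 to 0.264, Rgs5 -0.137 to 0.315 and Pdgfrb -0.335 to 0.093. No paired analysis was possible because the labels carry no replicate numbers: those used here were given in accession order and only name hexagons. Section was a factor in the within-section fits. Shallow libraries limit what a 0 shows: in the shallowest, 3 counts correspond to 252 CPM.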
